A study of Mus musculus with 18 samples.

Results

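Immunoglobulin genes are kept in the germline as arrays of short variable (V), diversity (D) and joining (J) segments followed by constant (C) genes, and the members described here were all genes that GENCODE M21 types as an immunoglobulin C, D, J or V gene on the mouse assembly GRCm38. The rule gave 264 segments of 55450 annotated genes. The heavy chain locus on chromosome 12 held 144 of them (113 V, 19 D, 4 J and 8 C), the kappa locus on chromosome 6 held 108 (102 V, 5 J and 1 C) and the lambda locus on chromosome 16 held 12 (3 V, 5 J and 4 C). Each segment was scored for peaks of KDM2A, a histone demethylase, and of H3K36me2, histone H3 dimethylated at lysine 36, in a window from 2 kb before to 2 kb after the segment.

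The study compared splenic B cells of Mir155-sufficient (WT) and Mir155-deficient (KO) mice, which lack the microRNA miR-155, to ask how its loss changes KDM2A binding and H3K36me2. All cells, WT and KO alike, were cultured for 2 days at 1% O2 with anti-CD40 at 1 µg/ml, the F(ab')2 fragment of anti-IgM at 5 µg/ml and IL-4 at 4 ng/ml. Chromatin immunoprecipitation followed by sequencing (ChIP-seq) was run in 3 cultures per genotype for each antibody, which gave 12 peak lists, and the 6 input libraries among the 18 samples were not used here. By the labels, replicate 1 of every group was male and replicates 2 and 3 were female; the labels give no age for these mice. The study used mice with a knocked-in heavy chain and a light chain transgene in other experiments. For these cultures the methods name C57BL/6 donors, sufficient or deficient for Mir155, and neither they nor the labels name a receptor transgene. B cells were enriched by removing cells that carry CD43, Ter119 or CD4, and the rearrangements they held were not measured.

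In a mature B cell, V(D)J recombination has joined a V, a D and a J segment of the heavy chain locus, and a V and a J segment of a light chain locus, and has removed or inverted the DNA between them. The rearranged heavy chain gene is first expressed with Ighm and Ighd, the genes of the IgM and IgD constant regions, and class switch recombination can later join it to a downstream constant gene; IL-4 with CD40 engagement is the classical signal for switching to Ighg1 and Ighe. KDM2A removes methyl groups from H3K36me2 and binds unmethylated CpG dinucleotides through a CXXC zinc finger, while V promoters carry an 8-base element, the octamer, that the factors Oct-1 and Oct-2 bind.

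KDM2A peaks recurred at a few places in these loci, and the sequences of those found in at least 5 of the 6 KDM2A lists are shown because the heavy chain results turn on them. Within 10 kb of the loci, 7 stretches were under a KDM2A peak in at least 5 lists, 6 of them in the heavy chain locus and 1 in the kappa locus. They were chosen after the peak lists had been seen. Sequences are from the RefSeq copy of GRCm38.p6 and read 5′ to 3′ on the strand that the locus is transcribed from, which is the minus strand for the heavy chain and the plus strand for kappa. The stretch nearest the J segments lay at chr12:113427342-113427582, in the intron between Ighj4 and Ighm and 1052 bases from Ighj4 at its midpoint, where the heavy chain intronic enhancer is known to lie. Its capitals mark the octamer (ATGCAAAT, or ATTTGCAT on the other strand), which 2.07% of consecutive 241-base windows of chromosome 12 hold.
Ighj4-Ighm intron: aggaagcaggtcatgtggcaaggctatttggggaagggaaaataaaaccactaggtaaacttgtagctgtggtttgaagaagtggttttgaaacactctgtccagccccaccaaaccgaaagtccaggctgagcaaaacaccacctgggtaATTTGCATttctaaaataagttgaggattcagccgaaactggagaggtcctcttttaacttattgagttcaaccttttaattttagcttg
The stretch at chr12:113424315-113425177, 863 bases long, lay between that intron element and Ighm in tandem repeats of the kind known as a switch region, and the annotation places 4 small genes typed as microRNA there (Gm25747, Gm22175 and 2 entries of Gm24022). The 300 bases at its middle, chr12:113424596-113424895, are printed with AGCT, a motif that switch regions are rich in, in capitals. AGCT occurred 45 times in them, against a median of 1 in the 300-base windows of chromosome 12, and 0.000257% of those windows held as many. In this stretch 39.6% of all 50-base words occurred more than once in the assembled genome.
Upstream of Ighm: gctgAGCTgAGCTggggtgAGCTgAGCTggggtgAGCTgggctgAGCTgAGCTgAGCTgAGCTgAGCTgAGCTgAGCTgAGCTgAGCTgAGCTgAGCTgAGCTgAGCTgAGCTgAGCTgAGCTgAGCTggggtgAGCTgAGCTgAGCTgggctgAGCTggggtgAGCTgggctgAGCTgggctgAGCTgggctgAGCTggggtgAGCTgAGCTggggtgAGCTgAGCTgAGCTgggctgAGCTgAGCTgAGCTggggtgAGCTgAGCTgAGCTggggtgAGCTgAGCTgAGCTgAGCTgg
The stretch at chr12:113421898-113422749 covered the start of Ighm, with 315 and 339 bases in its leading pair of coding exons. Its middle 300 bases, chr12:113422174-113422473, are printed with CpG in capitals. They held 9 CpG dinucleotides, and 2.69% of chromosome 12 windows of that length held as many.
Start of Ighm, exons and the intron between them: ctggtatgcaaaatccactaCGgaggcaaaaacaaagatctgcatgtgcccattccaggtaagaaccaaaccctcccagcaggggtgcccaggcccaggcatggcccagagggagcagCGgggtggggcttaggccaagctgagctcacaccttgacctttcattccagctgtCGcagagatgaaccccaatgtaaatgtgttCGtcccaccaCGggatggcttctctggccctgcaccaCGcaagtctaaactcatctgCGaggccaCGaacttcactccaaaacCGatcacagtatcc
The stretch at chr12:113339277-113339597 lay with its midpoint 8913 bases upstream of Ighg1 and overlapped no annotated gene. Its middle 300 bases, chr12:113339287-113339586, held 1 CpG, in capitals.
Upstream of Ighg1: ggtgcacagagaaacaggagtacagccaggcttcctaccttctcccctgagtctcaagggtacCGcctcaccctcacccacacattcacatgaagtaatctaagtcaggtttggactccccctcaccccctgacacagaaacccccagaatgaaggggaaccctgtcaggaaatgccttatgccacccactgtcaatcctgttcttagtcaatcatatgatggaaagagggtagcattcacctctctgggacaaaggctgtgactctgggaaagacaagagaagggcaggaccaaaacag
In the kappa locus the stretch at chr6:70735558-70735837 lay with its midpoint 8731 bases downstream of Igkc, where a B cell enhancer of the kappa locus is known, within the annotated lincRNA Gm30211. It held 2 CpG, in capitals.
Downstream of Igkc: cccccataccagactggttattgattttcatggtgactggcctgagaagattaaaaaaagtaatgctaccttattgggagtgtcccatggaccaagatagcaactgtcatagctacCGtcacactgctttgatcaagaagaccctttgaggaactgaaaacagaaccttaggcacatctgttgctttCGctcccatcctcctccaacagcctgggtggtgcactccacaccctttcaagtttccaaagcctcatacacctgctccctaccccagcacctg

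The remaining stretches were at chr12:113418897-113420956 within Ighm, and at chr12:113417598-113417913 between Ighm and Ighd. The intron element with the octamer was under a peak in 6 of 6 KDM2A lists, with a fold enrichment over input of 4.58, 2.82 and 2.92 in WT replicates 1 to 3 and of 3.33, 2.98 and 3.25 in KO replicates 1 to 3. The WT and KO values overlapped. The stretch upstream of Ighg1 was also found in 6 of 6 lists, at 4.25, 3.19 and 4.14 in WT and at 2.77, 2.96 and 3.29 in KO. Here 1 KO list stood above the lowest WT list. In the AGCT-rich stretch the WT lists gave folds of 3.07, 3.17 and 2.95 and the KO lists 2.82, 2.47 and 2.71, and in the longer stretch within Ighm the WT lists gave 3.07, 2.96 and 2.95 and the KO lists 2.72, 2.81 and 2.69. These 2 stretches are not separate finds, since WT replicates 1 and 3 had the same folds, 3.07 and 2.95, in both. All WT values lay above the KO values there, from which nothing is read: the stretches were picked with the lists in view, no share over other peaks was computed, and the centred fold at Ighm did not pass the test given further on. Over the start of Ighm the WT lists gave 3.07, 3.17 and 2.95 and the KO lists 2.72, 2.98 and 2.69, with overlap. Its WT folds were those of the AGCT-rich stretch, so the start of Ighm is not a separate find either. The stretch between Ighm and Ighd had the folds of the longer stretch in WT replicates 1 and 2 (3.07 and 2.96) and KO replicates 1 and 3 (2.72 and 2.69). The stretch downstream of Igkc was under a peak in 5 of 6 lists, at 3.04, 3.17 and 3.56 in WT and at 2.87 and 3.49 in KO replicates 2 and 3, and it was not called in KO replicate 1. A fold here is that of the whole peak over the stretch, as the peak caller gave it, so that a long peak carries its mean.

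The peak lists differed in size, which bears on every count below. KDM2A lists held 23372 to 29105 peaks in WT and 15387 to 21705 in KO, and H3K36me2 lists held 85387 to 94136 in WT and 37447 to 106720 in KO. The share of the genome under peaks was 0.77% to 1.11% in WT and 0.433% to 0.715% in KO for KDM2A, and 4.17% to 5.33% in WT and 1.45% to 3.63% in KO for H3K36me2. Read counts were not used here, so the depth behind a list is unknown and a segment without a peak can hold signal under the caller's threshold. Of 7 B cell marker genes, among them Ms4a1, Cd79a and Pax5, 7 had a KDM2A peak in every WT list and 6 or 7 in the KO lists, against 0 to 2 of 5 T cell markers. H3K36me2 peaks were at 7 B cell markers in every WT list and at 7, 4 and 5 in KO, at 0 to 3 of 5 T cell markers, and at 2 or 3 of 4 myeloid, 2 of 3 erythroid and 2 or 3 of 3 plasma cell markers in all lists. KDM2A peaks were at 0 to 2 of the myeloid, 1 of the erythroid and 2 or 3 of the plasma cell markers. A peak marks chromatin and not expression, so these counts do not measure other cells, and their part in the results was not tested.

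KDM2A was found at the C and J end of the loci and hardly at the V arrays. A peak of KDM2A lay within 2 kb of 25, 9 and 18 of the 264 segments in WT replicates 1 to 3, and of 8, 9 and 11 in KO replicates 1 to 3. In all, 27 segments had a KDM2A peak in at least 1 list, of which 8 were heavy chain C genes, 4 heavy chain J, 1 kappa C, 5 kappa J, 3 lambda C and 4 lambda J. None of the 113 heavy chain V or the 19 D segments had one in any list. Of the 102 kappa V segments only Igkv2-137 had one, in KO replicate 3, and of the 3 lambda V segments only Iglv2, in WT replicates 1 and 3. The 5 segments found in all 6 lists were Ighd, Ighm, Ighj2, Ighj3 and Ighj4. The 3 J windows share the intron peak, so they are not independent finds.

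H3K36me2 lay mostly elsewhere. A peak lay at 71, 83 and 74 segments in WT and at 58, 54 and 47 in KO, and the lowest WT list stood above the highest KO list. In all, 123 segments had a peak in at least 1 list, and 88 of those were kappa V segments, which make up most of the 102 of that class. The remaining ones were 16 of 113 heavy chain V segments, 7 of 8 heavy chain C genes and all 12 lambda segments. No H3K36me2 list had a peak at a heavy chain D or J segment, at a kappa J segment or at Igkc, the kappa constant gene. The plot of segments with a peak by class shows this split, with KDM2A at heavy chain C and J and H3K36me2 at heavy chain C and kappa V.

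**Figure D1:**
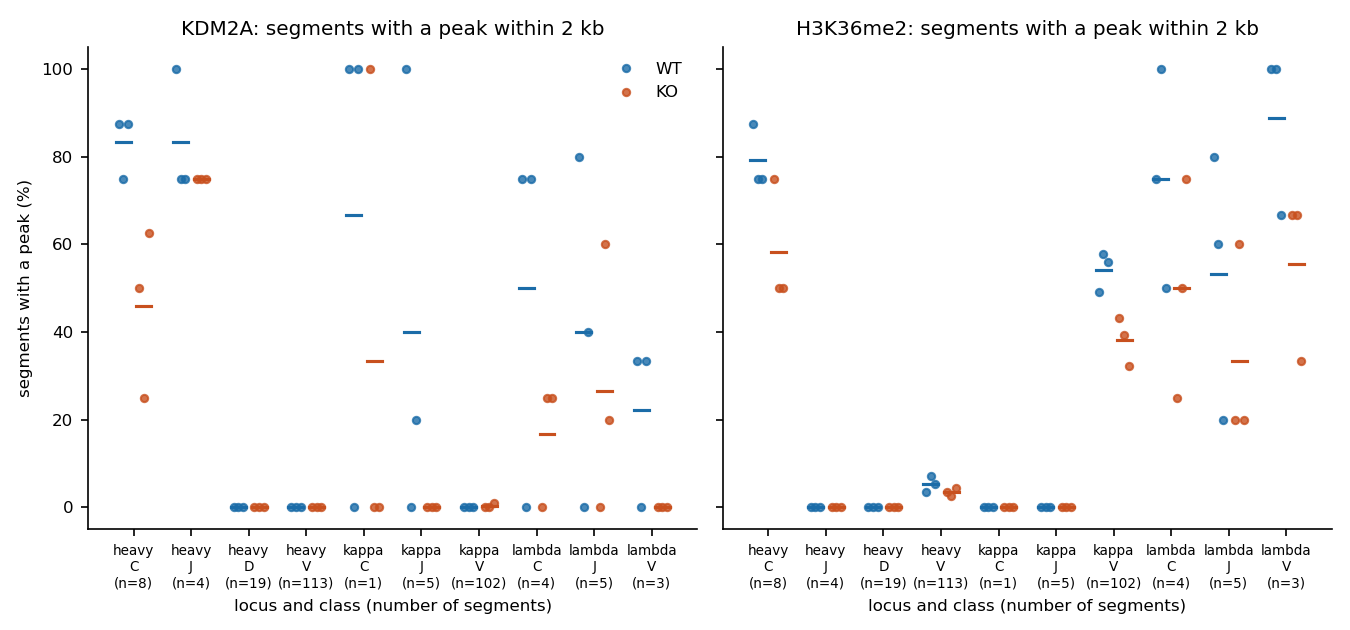
Share of the segments of each class (percent, y axis) with a peak within 2 kb, for KDM2A (left) and H3K36me2 (right), by locus and class. Each point is 1 library, the bar is the mean of 3, WT is blue and KO orange; KDM2A is at 0 for heavy chain D and V, and H3K36me2 is at 0 for heavy chain D and J and for kappa J and C.

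CpG content was set beside these classes. The segment windows held a median of 3.98 CpG per kb, against 9.81 over the windows of 55413 genes on the assembled chromosomes and 16.54 over the 8475 genes with a KDM2A peak in all 6 lists. The 27 segments with a KDM2A peak had a median of 7.33 CpG per kb and the 237 without had 3.95. By class the median was 7.54 at heavy chain C, 7.04 at heavy chain J, 11.14 at kappa J and 7.94 at Igkc, and 4.03 and 3.72 at heavy chain and kappa V segments. Lambda C and J segments, at 3.27 and 3.22, had KDM2A peaks at a CpG content below that of the V arrays. T cell receptor segments, with fewer KDM2A peaks than immunoglobulin segments (a mean of 2.14% against 5.05% over 6 lists), had a higher median of 7.72. These are descriptions of windows that overlap one another, and no test was run on them.

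In the heavy chain constant region KDM2A peaks lay in both of the adjoining stretches given here, and H3K36me2 peaks almost only in that from Igha through Ighd. Across the 13509 bases from Ighj1 to just before the start of Ighd, chr12:113416325-113429833, KDM2A peaks covered 73.0%, 59.5% and 57.5% in WT and 54.9%, 29.3% and 51.9% in KO. H3K36me2 peaks covered 2.19% of it in WT replicate 1 and none in the other 5 lists. Across the 161495 bases from Igha through the whole of Ighd, chr12:113254830-113416324, H3K36me2 peaks covered 56.9%, 61.6% and 54.3% in WT and 35.2%, 14.2% and 17.2% in KO. KDM2A peaks covered 11.7%, 12.8% and 12.9% of that stretch in WT and 3.90%, 0.89% and 5.10% in KO. In bases, WT KDM2A peaks took up 18861, 20589 and 20794 there, against 9856, 8041 and 7773 from Ighd to Ighj1. In KO the order varied, with 6296, 1438 and 8242 against 7414, 3951 and 7017. The pair of stretches was chosen after the lists had been seen. Taking bases under a peak in at least 2 of 3 WT lists, 21091 bases of the whole constant region were under KDM2A and 96736 under H3K36me2, and 3925 were under both. In KO the counts were 9377 and 22968, with 0 under both.

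**Figure D2:**
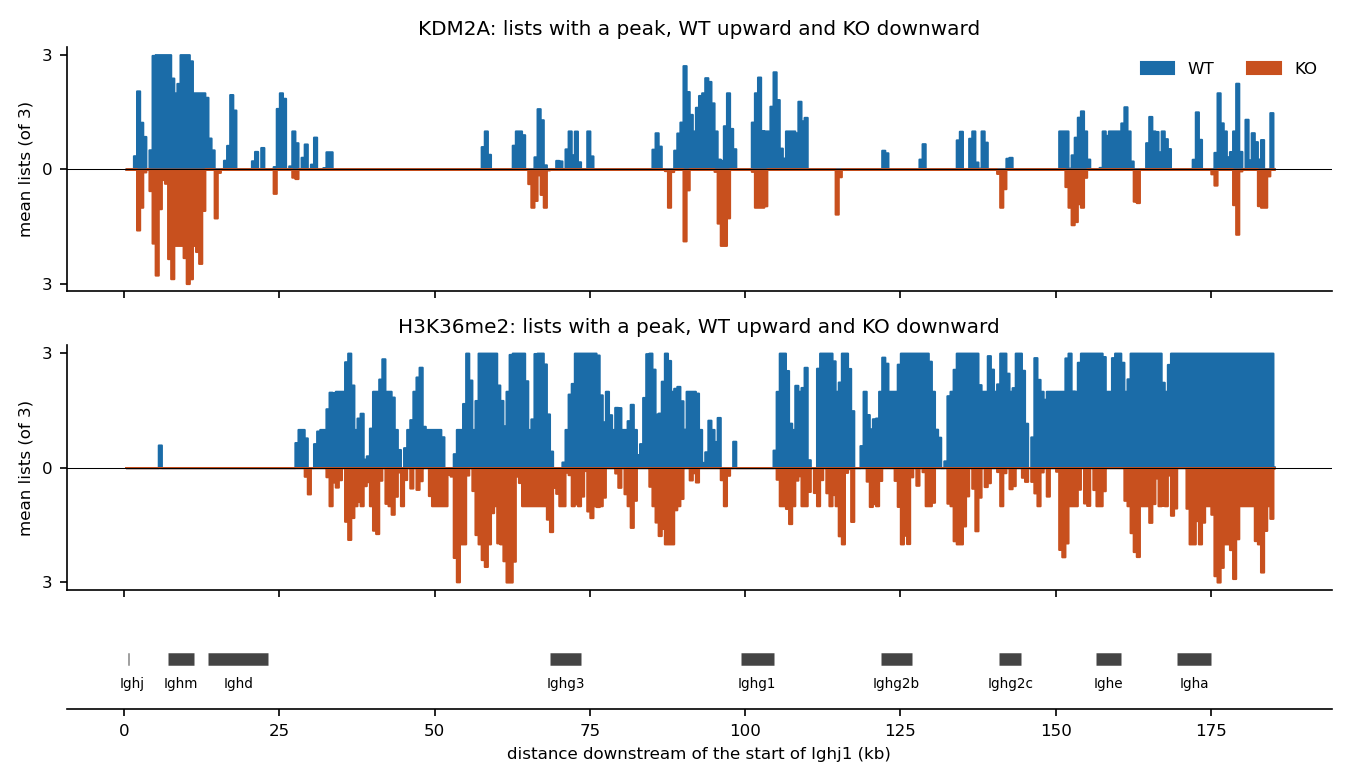
Mean number of peak lists (of 3, y axis) over short equal bins along the heavy chain J segments and constant genes, by distance downstream of the start of Ighj1 (kb, x axis), with WT drawn upward in blue and KO downward in orange; the lowest panel shows the genes. KDM2A is fullest from the intron upstream of Ighm through Ighm in WT, and H3K36me2 is nearly absent from Ighj to Ighd and lies over much of the region downstream of Ighd in WT, with a gap at Ighg1.

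In the Igha to Ighd stretch both marks were lower in every KO list than in any WT list. H3K36me2 coverage was 57.59% ± 3.72 (SD over 3 lists) in WT and 22.21% ± 11.35 (SD over 3 lists) in KO, with p = 0.1 in a two-sided exact permutation test, the smallest p that 3 against 3 lists allow. KDM2A coverage in WT was 12.4% ± 0.66 and in KO 3.3% ± 2.17 (SD over 3 lists each; two-sided exact permutation p = 0.1). The whole genome moved too: divided by the percent of the genome under peaks in its own list, H3K36me2 coverage was 11.8 ± 1.67 times that percent in WT and 10.2 ± 1.54 in KO and the lists overlapped (exact permutation p = 0.3), whereas KDM2A was 13.9 ± 3.08 times in WT and 5.71 ± 3.19 times in KO (SD over 3 lists each) with no overlap (exact permutation p = 0.1). With only peaks of −log10 q of at least 2, H3K36me2 coverage in WT was 25.0% ± 11.45 and in KO 6.21% ± 8.28 (SD over 3 lists each) and the groups overlapped (exact permutation p = 0.2).

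From Ighd to Ighj1 the WT coverage by KDM2A was 63.3% ± 8.39 and the KO coverage 45.4% ± 14.0 (SD over 3 lists each; two-sided exact permutation p = 0.1). Without KO replicate 2 the difference moved from -18.0 to -9.93 points. Relative to the genome share of each list the direction turned, to 69.6 ± 6.64 times in WT and 83.9 ± 24.1 times in KO (SD over 3 lists each; exact permutation p = 0.5). With only peaks of −log10 q of at least 2 the WT values stayed at 63.3% ± 8.39, while the KO lists fell to 2.18%, 22.1% and 1.99%. In KO replicates 1 and 3 nearly all of the covered bases were thus under peaks with a −log10 q below 2.

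Gene by gene, Ighm, the IgM heavy chain gene, had the highest KDM2A coverage of the constant genes in 6 of 6 lists. KDM2A peaks took up 100%, 85.5% and 71.2% of its window in the WT lists and 81.6%, 36.1% and 71.7% in the KO lists. The genotypes overlapped. Ighd, which is transcribed together with Ighm, had 27.8%, 23.9% and 11.5% in WT and 13.3%, 5.17% and 9.55% in KO, again with overlap. Ighg1, the IgG1 gene, had 50.8%, 30.7% and 15.8% in WT, 23.4% in KO replicate 3 and no peak in the other KO lists. Ighe, the IgE gene, had 35.9% and 33.5% in WT replicates 2 and 3, 0.29% in KO replicate 1 and none in the rest. Igha, the IgA gene, had 14.2%, 17.7% and 7.12% in WT and 2.89% in KO replicate 3 only. It was the 1 of 21 tested segments (4.76%) whose KDM2A lists did not overlap between genotypes, against 15.6% of all genes tested that were lower in KO. That separation was lost with only peaks of −log10 q of at least 2, at -2.04 points, with lists cut to the same length, at -7.03, and with no flank, at -7.82 (exact permutation p = 0.4 for each). Ighg3, another IgG gene, had 6.06%, 14.1% and 22.5% in WT and 9.36% in KO replicate 3 only. Ighg2b had 5.17% and 5.14% in WT replicates 1 and 3 and no KDM2A peak in KO. Ighg2c, with 3.89% in WT replicate 1 and 10.7% in KO replicate 1 and none elsewhere, was the 1 of 21 tested segments with a higher KO mean, by 2.27 points ± 3.07 (SE; limma adjusted p = 0.781).

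H3K36me2 was broad over the switched isotypes in WT B cells. The Igha window was 100%, 94.1% and 100% under H3K36me2 peaks in WT and 72.8%, 25.9% and 33.6% in KO. The Ighe window was 100%, 86.2% and 88.0% covered in WT, and 50.1% and 5.34% in KO replicates 1 and 2 with no peak in replicate 3. Both genes were lower in every KO list than in any WT list. Ighg2b, an IgG2 gene, had 87.6%, 64.8% and 89.3% in WT and 24.1%, 21.8% and 17.3% in KO. Ighg2c, the other IgG2 gene, had 80.5%, 83.7% and 54.2% in WT and 21.3%, 0% and 4.05% in KO. These were likewise separate. Of all genes tested for H3K36me2, 27.2% were lower in every KO list than in any WT list, against 11.3% of the tested segments. With only peaks of −log10 q of at least 2 the KO minus WT difference was -21.4 points at Ighe (exact permutation p = 0.7) and -19.8 at Ighg2b (exact permutation p = 1.0), so that their separation was lost, while Ighg2c stayed at -63.5 (exact permutation p = 0.1). Ighg3 had 75.5%, 49.6% and 63.0% in WT and 57.4%, 10.4% and 19.9% in KO, so that KO replicate 1 stood above WT replicate 2. Ighg1 was the least covered of the switched isotypes in WT, at 15.5%, 17.2% and 19.6%, with 13.4% in KO replicate 1 and none in the other KO lists.

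**Figure D3:**
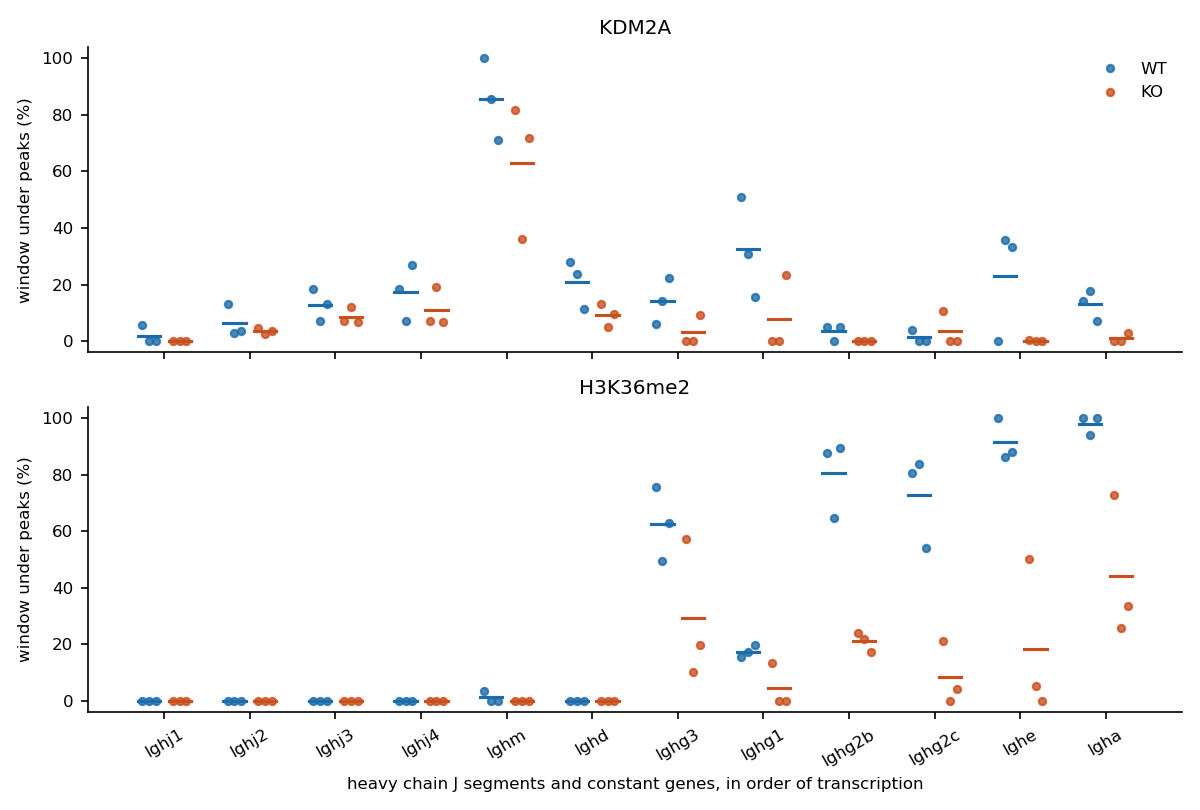
Percent of each heavy chain J and C window (segment and 2 kb on each side) under peaks of KDM2A (top) and H3K36me2 (bottom), in the order of transcription. Each point is 1 library, the bar is the mean of 3, WT is blue and KO orange; KDM2A is highest at Ighm in both genotypes and H3K36me2 is at 0 from Ighj1 to Ighj4 and at Ighd.

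Peak strength was compared where peaks remained, and no difference passed the test. The highest fold of an H3K36me2 peak over Igha in the WT lists was 2.77, 2.80 and 2.81 and in the KO lists 2.91, 2.99 and 2.95, and over Ighg2b the WT lists gave 2.97, 2.67 and 2.73 and the KO lists 3.28, 2.74 and 2.64. After the median log2 fold of each list was taken off, the difference KO minus WT was 0.01 ± 0.08 (SE) on the log2 scale for Igha (limma adjusted p = 0.985) and -0.03 ± 0.08 for Ighg2b (limma adjusted p = 0.969). For KDM2A it was -0.12 ± 0.10 at Ighm (limma adjusted p = 0.72) and -0.11 ± 0.09 at Ighd (limma adjusted p = 0.72). Over all segments and lists the highest fold per window ran from 2.3 to 4.58 for KDM2A, with a median of 2.79, and from 2.13 to 3.49 for H3K36me2, with a median of 2.63.

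The largest coverage changes of single segments were in H3K36me2 at the heavy chain C genes. KO minus WT was -72.91 percentage points ± 15.91 (SE) at Ighe, -64.34 ± 12.57 at Ighg2c and -59.52 ± 12.16 at Ighg2b, each with an adjusted p of 0.252 in limma over 21987 genes. In KDM2A the value at Igha was -12.04 ± 3.36 (limma adjusted p = 0.422 over 17834 genes). No gene, segment or otherwise, passed an adjusted p of 0.05 in limma for coverage or for fold with either antibody, and 0% of the tested genes were called. At an unadjusted p under 0.05, 14 of 97 tested segments (14.4%) were counted for H3K36me2 coverage, against 18.5% of all genes tested, and 2 of 21 (9.52%) for KDM2A coverage, against 9.45%. For fold, 0 of 10 segments for H3K36me2 and 0 of 5 for KDM2A were counted, against 6.81% and 8.41% of all genes. On simulated data the H3K36me2 coverage fit recovered 0% of changes of 30 points and 68% of changes of 60 points, and the KDM2A coverage fit 65.5% of changes of 30 points, and neither recovered changes of 10 points. The fold fits recovered 91.5% of log2 changes of 0.5 for H3K36me2 and 29.5% for KDM2A, and 99.5% and 96.5% of changes of 1. The simulation raised 200 genes in KO and left the others unchanged, with normal spread that was not bounded. Measured coverage fell in KO at the median gene, so these rates do not give the power in these data.

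Segments whose lists did not overlap between genotypes were counted beside all genes tested. For H3K36me2, 11 of 97 tested segments (11.3%) were lower in every KO list than in any WT list, against 27.2% of all genes tested, and 1 of 97 (1.03%), Igkv4-90, was higher in every KO list, against 0.173%. For KDM2A, 1 of 21 (4.76%) was lower, against 15.6%, and 0 were higher, against 0.987%. The median KO minus WT coverage was -6.82 points over the tested segments and -5.93 over all tested genes for H3K36me2, and -7.88 and -1.23 for KDM2A. The KDM2A median of the segments was -3.7 without WT replicate 1, with 14 of 21 lower in KO, against -0.758 over all genes. After division by the genome share of each list it was -3.51, with 12 of 21 lower, against 0.179 over all genes. For H3K36me2 the same division gave 0.306 for the segments, with 47 of 97 lower, and -0.316 for all genes. The KDM2A segments tested share peaks and lie mostly at the C and J clusters. Testing required a peak in at least 2 of 6 lists, of either genotype. Segments that entered through WT peaks alone, such as Ighg2b for KDM2A and Igkv12-44 for H3K36me2, could only be lower in KO. Those that entered through KO peaks alone could only be higher. The part of such segments in these medians and counts was not tested.

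At the kappa locus H3K36me2 lay over the V array. A peak lay within 2 kb of 50, 59 and 57 of the 102 V segments in WT and of 44, 40 and 33 in KO, and the groups did not overlap. With no flank, 26.9%, 22.2% and 22.2% of all kappa segments overlapped a peak in WT and 11.1%, 15.7% and 13.9% in KO. Over the whole locus 51.2% ± 4.38 of the 108 segments had a peak in WT and 36.1% ± 5.16 in KO (SD over 3 lists each; two-sided exact permutation p = 0.1, adjusted over 16 tests 0.16). When all lists were cut to the same length by peak strength the direction turned, and KO was 7.72 points higher (exact permutation p = 0.4). With only peaks of −log10 q of at least 2 the share differed by -1.23 points (exact permutation p = 0.6) and coverage, at -5.4 points with all peaks, by -0.734 (exact permutation p = 0.3), so the separation was lost. Coverage turned to 0.721 points higher in KO with lists cut to the same length (exact permutation p = 0.7) and to 1.4 higher after division by the genome share (exact permutation p = 0.4). The kappa V segments are named by family, and family shares are given as descriptions. All 26 members of the Igkv4 family had a peak in at least 1 list, and a mean of 68.0% ± 8.01 did in WT and 57.7% ± 10.2 in KO (SD over 3 lists). Of the 9 Igkv3 segments, which lie next to the J cluster, 3 had a peak in any list, with 7.41% ± 12.8 in WT and 3.70% ± 6.42 in KO (SD over 3 lists). Igkv12 segments had 72.2% ± 9.62 in WT and 22.2% ± 25.5 in KO, and Igkv8 segments 56.7% ± 15.3 and 23.3% ± 15.3 (SD over 3 lists). Other families had the opposite order: both Igkv13 segments had a peak in each KO list, against 83.3% ± 28.9 in WT (SD over 3 lists), and the single Igkv15, Igkv16 and Igkv18 segments had a peak in 33.3%, 0% and 0% of WT lists and in 66.7%, 66.7% and 33.3% of KO lists. No test was run on single families.

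Position along the array was described next. With the V segments split into 4 bins by distance from the J cluster, H3K36me2 peaks in WT were at 34.6% ± 3.85 of the nearest bin, at 18.4 to 583.5 kb, at 62.8% ± 5.88 and 69.3% ± 6.11 of the middle bins and at 50.7% ± 10.1 of the farthest, at 2180.1 to 3166.3 kb (SD over 3 lists). In KO the same bins had 20.5% ± 11.1, 39.7% ± 5.87, 61.3% ± 15.1 and 32.0% ± 6.93 (SD over 3 lists). The middle of the array was the fullest in both genotypes. Igkv3 segments lay at 18.4 to 203.7 kb and Igkv4 segments at 1021.3 to 1967 kb, while Igkv1 segments were spread from 710.9 to 3112.1 kb and Igkv12 segments from 778.9 to 2151.3 kb. The parts of family and position were not tested.

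**Figure D4:**
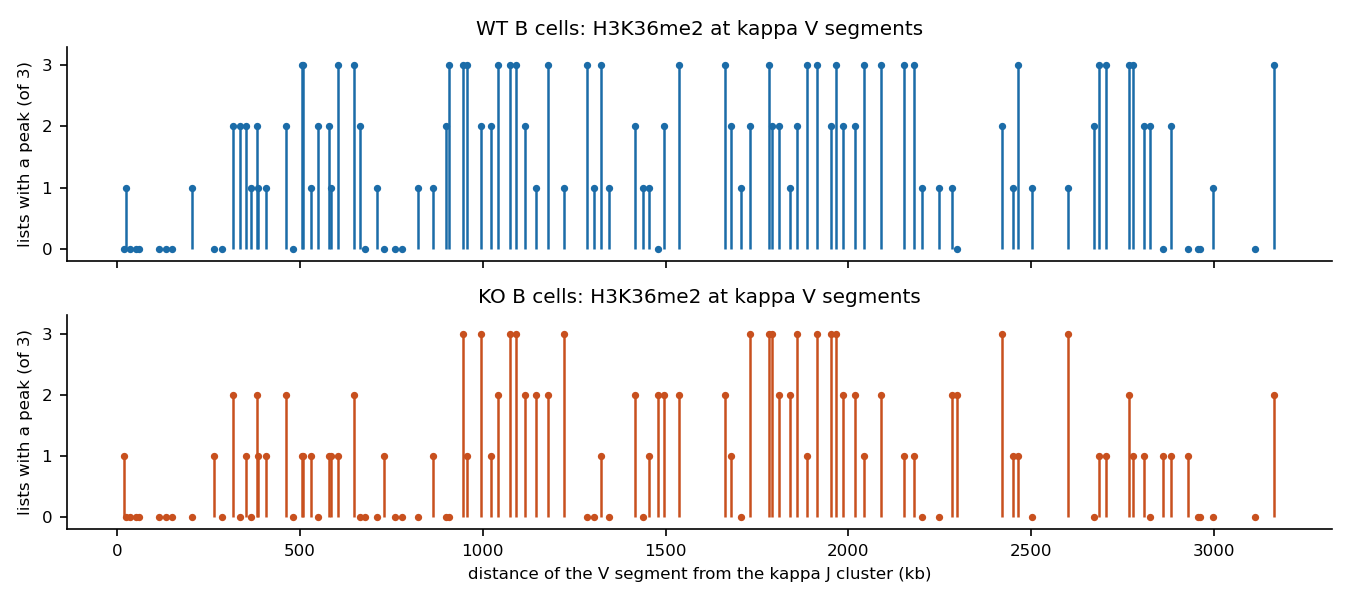
Number of H3K36me2 lists (of 3, y axis) with a peak within 2 kb of each of the 102 kappa V segments, by distance from the kappa J cluster (kb, x axis), in WT (top) and KO (bottom). The segments nearest the J cluster have few peaks in both genotypes, and the fullest part lies in the middle of the array.

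The 6 kappa V segments with an H3K36me2 peak in all lists were Igkv4-92, Igkv4-90, Igkv13-84, Igkv4-54, Igkv4-53 and Igkv5-45. In all, 22 V segments had a peak in at least 5 lists, 20 of them kappa. Igkv4-53 was the fullest of the 6, with 40.6%, 75.4% and 66.3% of its window under peaks in WT and 9.80%, 60.7% and 83.2% in KO. Igkv4-90 had 15.2%, 29.5% and 27.1% in WT and 30.8%, 32.8% and 37.2% in KO, higher in each KO list than in any WT list by a mean of 9.66 points ± 8.78 (SE; limma adjusted p = 0.472). Without the 2 kb on each side that difference turned to -24.8 points, with 5 kb on each side it was 1.37 and without WT replicate 1 it was 5.28. Igkv13-84 had 28.4%, 21.3% and 28.9% in WT and 4.16%, 38.2% and 40.6% in KO. Igkv12-44 had 15.7%, 37.3% and 59.9% in WT and no peak in any KO list. By mean highest fold the leading V segments were Iglv1 at 2.81, Iglv2 at 2.78, Igkv13-85 at 2.76, Igkv4-51 and Igkv2-137 at 2.73, Igkv4-74 at 2.72, Igkv2-109 and Igkv5-48 at 2.71, Igkv10-96 at 2.69 and Igkv5-45 at 2.68.

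V promoters are shown because the octamer is frequent in them, with and without H3K36me2 peaks. In the 300 bases from 250 before to 50 after the annotated start, the octamer (ATGCAAAT or, on the other strand, ATTTGCAT) was found at 80.5% of heavy chain V, 72.5% of kappa V and 3 of 3 lambda V segments. It was found at 2.2% of all 55413 genes and at 0 of 144 T cell receptor V segments. Among kappa V segments it was found at 71.6% of the 88 with an H3K36me2 peak in some list and at 78.6% of the 14 with none. Among heavy chain V segments it was found at 87.5% of the 16 with a peak and at 79.4% of the 97 with none. These shares are descriptions, and no difference was tested. The windows of Igkv4-53 (chr6:69649314-69649613, minus strand), whose promoter lay under an H3K36me2 peak in 5 of 6 lists, of Igkv13-84 (chr6:68939352-68939651, plus strand) and of Iglv2 (chr16:19260810-19261109, minus strand), each under a peak in 2 lists, are printed with the octamer in capitals.
Igkv4-53: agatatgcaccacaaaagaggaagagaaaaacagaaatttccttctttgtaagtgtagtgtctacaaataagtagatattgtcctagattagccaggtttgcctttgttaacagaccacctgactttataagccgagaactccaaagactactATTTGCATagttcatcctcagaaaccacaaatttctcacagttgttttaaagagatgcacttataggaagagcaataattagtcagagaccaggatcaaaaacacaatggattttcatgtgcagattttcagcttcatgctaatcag
Igkv13-84: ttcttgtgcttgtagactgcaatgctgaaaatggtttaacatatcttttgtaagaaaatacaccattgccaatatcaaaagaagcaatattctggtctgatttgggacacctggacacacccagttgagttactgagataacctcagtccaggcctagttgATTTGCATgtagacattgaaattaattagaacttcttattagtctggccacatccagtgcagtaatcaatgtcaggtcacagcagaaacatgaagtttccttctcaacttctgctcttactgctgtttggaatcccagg
Iglv2: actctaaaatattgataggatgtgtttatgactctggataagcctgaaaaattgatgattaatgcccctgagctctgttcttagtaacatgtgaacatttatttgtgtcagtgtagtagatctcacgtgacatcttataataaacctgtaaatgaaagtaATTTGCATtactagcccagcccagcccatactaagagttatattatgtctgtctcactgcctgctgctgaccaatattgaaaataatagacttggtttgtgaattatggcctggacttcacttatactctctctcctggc

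Heavy chain V segments had few H3K36me2 peaks, at 4, 8 and 6 of 113 in WT and at 4, 3 and 5 in KO. They belonged to the Ighv1 and Ighv8 families alone. Of 53 Ighv1 segments 13 had a peak in some list, and of 9 Ighv8 segments 3. The Ighv8 peaks were in KO lists only, at 14.8% ± 6.42 of the family against 0% in WT (SD over 3 lists), and this difference was not tested. In the bin of heavy chain V segments nearest the J cluster, at 148.7 to 639 kb, there was no H3K36me2 peak in any list. The V arrays hold repeated sequence: a median of 17.4% of the 50-base words of heavy chain V windows and 18.5% of those of kappa V windows occurred more than once in the genome, against 3.47% at heavy chain C and 0% at heavy chain J. D segment windows, where neither antibody had a peak, had the highest median of the classes at 37.3%. The kappa V segments with a peak had a median of 19.1% and those without had 13.5%. How multiply mapped reads were kept was not given in the sources used here, and its part in the peaks was not tested.

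The light chain constant and J segments differed between the loci. Igkc, which the kappa light chain uses, had KDM2A coverage of 31.6% in WT replicate 1, 45.2% in WT replicate 3 and 5.87% in KO replicate 1, and no peak in the other 3 lists. The windows of the 5 kappa J segments touched a KDM2A peak in WT replicate 1, at a highest fold of 2.75, and that of Igkj5 also in WT replicate 3. With no flank, 2.78% of all kappa segments overlapped a KDM2A peak in WT replicate 1, so not all 5 J segments themselves did. Igkc and the kappa J segments had no H3K36me2 peak in any list. In the lambda locus 8, 0 and 6 of 12 segments had KDM2A peaks in the WT lists and 0, 4 and 2 in the KO lists, so that both genotypes held a list with none. H3K36me2 coverage of the lambda windows was 18.7% ± 0.932 in WT and 8.07% ± 2.53 in KO (SD over 3 lists each; two-sided exact permutation p = 0.1). Divided by the genome share of each list it turned to 0.421 higher in KO (exact permutation p = 0.8). Iglv2, a lambda V segment, had 92.9%, 51.5% and 47.5% of its window under H3K36me2 in WT and 23.2%, 1.59% and 20.5% in KO. All WT values were above all KO values, as they were for 27.2% of all genes tested.

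Over all segments together, KDM2A peaks covered 2.19%, 1.55% and 1.71% of the merged windows in WT and 0.771%, 0.441% and 0.954% in KO. The means were 1.81% ± 0.334 and 0.722% ± 0.26 (SD over 3 lists each; two-sided exact permutation p = 0.1, adjusted 0.16). The share of segments with a KDM2A peak was 6.57% ± 3.04 in WT and 3.54% ± 0.579 in KO and overlapped (exact permutation p = 0.3, adjusted 0.4). Its difference of -3.03 points was -1.58 without WT replicate 1 and -4.61 without WT replicate 2. For H3K36me2 the share was 28.8% ± 2.37 in WT and 20.1% ± 2.11 in KO, and the coverage 9.57% ± 0.78 and 4.59% ± 0.999 (SD over 3 lists each; two-sided exact permutation p = 0.1 and adjusted 0.16 for both). With only peaks of −log10 q of at least 2 the H3K36me2 differences were -2.4 points in share, with overlapping lists (exact permutation p = 0.3), and -1.9 in coverage (exact permutation p = 0.1), against -8.71 and -4.98 with all peaks. None of the 16 tests could reach 0.05 with 3 lists against 3. Between the male lists H3K36me2 coverage differed by -3.32 points and between the female lists by -6.85 to -4.77, and KDM2A coverage by -1.42 and by -1.26 to -0.597. Divided by the genome share of each list, H3K36me2 coverage of the segments was 0.356 higher in KO, and with lists cut to the same length the H3K36me2 share was 2.4 points higher in KO (exact permutation p = 0.5 for both).

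Compared with T cell receptor segments, which share the V, D, J and C layout and are not rearranged in B cells, immunoglobulin segments had KDM2A peaks more often when each segment was counted, while the order for H3K36me2 depended on how windows were counted. KDM2A peaks were at 14, 4 and 9 of 226 T cell receptor segments in WT and at 1, 0 and 1 in KO. The immunoglobulin share was higher in 6 of 6 lists, by 1.64 to 3.72 points with a mean of 2.91 (two-sided exact sign-flip permutation p = 0.031, adjusted over 4 tests 0.042). Neighbouring windows share peaks, so this count rests on fewer peaks than segments. With overlapping immunoglobulin windows merged, 4.74%, 2.59% and 4.74% of 232 windows had a KDM2A peak in WT and 2.16%, 1.29% and 3.02% in KO. The H3K36me2 share was lower in 6 of 6 lists, by a mean of -5.95 points (exact sign-flip permutation p = 0.031, adjusted 0.042). The difference was -3.33 with no flank (exact sign-flip permutation p = 0.156) and -1.84 with −log10 q of at least 2 (exact sign-flip permutation p = 0.5), and it turned to 16.7 points higher where overlapping windows were merged before counting (exact sign-flip permutation p = 0.0312). Against all other genes KDM2A peaks were rarer at the segments, by -22.0 points (lower in 6 of 6 lists, exact sign-flip permutation p = 0.031, adjusted 0.042), and against the 18177 other genes no longer than 1 kb by -2.78 points (lower in 6 of 6 lists). H3K36me2 peaks differed by -5.34 points from all other genes (lower in 5 of 6 lists, exact sign-flip permutation p = 0.094) and by 9.56 points from the short genes (higher in 6 of 6 lists). The short genes were added after the data had been seen. The differences between the sets did not separate WT from KO (exact permutation p = 0.3 to 1.0 in 4 comparisons).

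**Figure D5:**
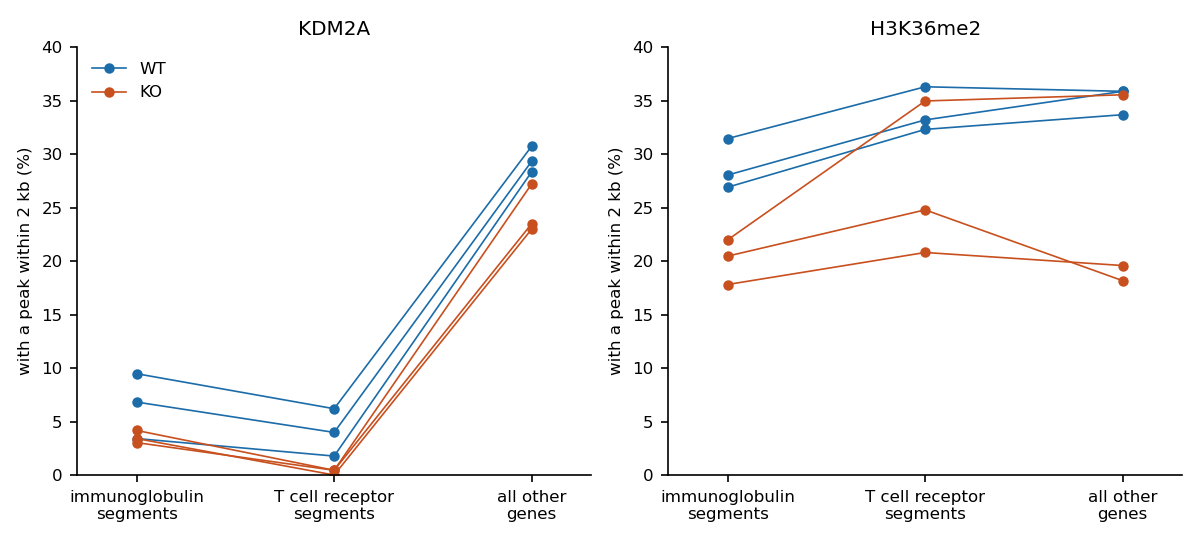
Share of immunoglobulin segments, T cell receptor segments and all other genes with a peak within 2 kb (percent, y axis), for KDM2A (left) and H3K36me2 (right). Each line joins the values of 1 library, WT in blue and KO in orange; every KDM2A line falls from immunoglobulin to T cell receptor segments and rises to the other genes, and every H3K36me2 line rises from immunoglobulin to T cell receptor segments.

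The genes that act on the segments were looked up from a list of 27. Of all genes outside the segments, H3K36me2 peaks were at 33.7%, 35.9% and 35.9% in the WT lists and at 35.5%, 18.2% and 19.6% in the KO lists, and KDM2A peaks at 28.3% to 30.7% in WT and 23.0% to 27.2% in KO. Of 5 B cell receptor partners, Cd79a and Cd79b, the signalling chains, had a KDM2A peak in all 6 lists, and H3K36me2 peaks were at 5 of the 5 in each WT list and at 5, 3 and 4 in KO. Of 4 surrogate light chain genes, H3K36me2 peaks were at 4, 4 and 3 in WT and at 4, 1 and 1 in KO. Igll1 and Vpreb2 of that group had no KDM2A peak in any list, and the group had 2 genes with one in each WT list and 2, 1 and 1 in KO. Of 10 genes of V(D)J recombination, KDM2A peaks were at 7 in each WT list and at 6, 5 and 7 in KO, and Rag2, which cuts at the segments with Rag1, had none. H3K36me2 peaks were at 8, 9 and 8 of these in the WT lists and at 9, 5 and 6 in the KO lists. Of 8 genes of switching and hypermutation, H3K36me2 peaks were at 3, 4 and 5 in WT and at 3, 1 and 1 in KO, and KDM2A peaks at 7, 6 and 7 in WT and at 6, 4 and 6 in KO. None of the 27 passed an adjusted p of 0.05 in limma in either direction.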

How the data were processed

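Per the submitters' processing notes the authors used BWA, MACS2 and bedtools on GRCm38, with versions not given in the sources used here, and the methods name the nf-core/chipseq pipeline. The authors deposited 1 broad peak list per ChIP library, called against input, with a score, a fold (ratio of ChIP to input) and −log10 p and q values per peak. The 6 inputs were not used. Read depth is unknown, so its share in the error cannot be given.

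A segment counted as having a peak when at least 1 base of its window (2 kb on both sides) was under one, and coverage was the percent of the window under peaks. WT and KO lists were compared by two-sided exact permutation tests, Benjamini-Hochberg adjusted over 16 tests, and immunoglobulin segments with other genes by exact sign flips over 6 lists. Per gene coverage and median-centred log2 fold were fitted with limma over genes with a peak in at least 2 of 6 lists, or in all 6 for fold, and p-values were adjusted over all genes tested. The limma step was tested on simulated data. The labels do not say that the cultures came from separate mice, so p-values measure the spread between these samples. The members and lists were chosen with earlier results of these data known. Segments were named by rule: all C and J segments, the 10 V segments with the highest mean fold among those with a peak in at least 5 lists, and per antibody the 3 largest coverage changes in each direction among segments whose genotypes did not overlap. Igkv4-53, Igkv4-90, Igkv13-84 and Igkv12-44 and the others with a peak in all lists were described after their values were seen. Immunoglobulin pseudogenes were not members. Alternatives were other windows and overlaps, stricter or equal numbers of peaks, scaling by genome share, a replicate block and leaving out each list. Promoters were cut from the RefSeq genome with GENCODE starts. Software was Python 3.11.15, numpy 2.4.6, pandas 2.3.3, scipy 1.17.1, numba 0.67.0, matplotlib 3.10.9, R 4.3.3 and limma 3.58.1. Single values of some listed genes are not reported here.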

Additional observations from a re-analysis of the deposited data

How the results depend on the processing

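Of 359 alternatives to 32 results, 11 turned direction. Exact tests of 3 lists against 3 cannot pass 0.05, so their p-values say nothing about stability. The KDM2A kappa share with merged windows and Igkv4-90 coverage with −log10 q of at least 2 went to 0. With all lists cut to the same length by peak strength, KO minus WT for H3K36me2 turned to 2.4 points for the share of all segments, 0.231 for heavy chain and 7.72 for kappa, and to 0.721 for kappa coverage. Divided by the percent of the genome under peaks, it turned to 0.356 for coverage of all segments, 1.4 for kappa and 0.421 for lambda, and KDM2A from Ighd to Ighj1 to 14.3. H3K36me2 at immunoglobulin minus T cell receptor segments turned to 16.7 points with merged windows, and was -3.33 with no flank and -1.84 with −log10 q of at least 2, no longer past the threshold. Against all other genes it was -11.3 with no flank and -4.62 with −log10 q of at least 2, both past the threshold, and turned to 9.56 against genes no longer than 1 kb. Igkv4-90 turned to -24.8 with no flank. The causes were not tested.

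Leaving out each list reversed 0 of 192 values. The KDM2A difference ran from 2.75 to 3.17 points against T cell receptor segments and from -22.4 to -21.4 against other genes, and that of H3K36me2 against T cell receptor segments from -6.54 to -4.54. Sign flips of 5 lists cannot give a p below 0.0625. The limma fold calls ran from 0 to 1 for KDM2A, with 1 without WT replicate 3, and from 0 to 2 for H3K36me2, with 1 without WT replicate 2 and 2 without KO replicate 2. Same-numbered WT and KO lists had correlations of deviations of -0.052 to 0.066, and unlike-numbered lists of -0.138 to 0.118. With 3 lists per group this cannot settle whether the numbers pair the lists, and replicate 1 was male in every group. With the replicate block limma made 0 calls for either antibody, and coverage of all segments differed by -4.98 points for H3K36me2 and -1.09 for KDM2A (exact sign-flip p = 0.25, the smallest 3 pairs allow).

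Peak lists hold no reads, so signal under the caller's threshold is not seen. Windows of neighbouring segments overlap and share peaks. Rearrangement in the cultured cells was not measured. The V arrays hold repeated sequence, and its part in the mapping of reads was not tested.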
